A study of Mus musculus with 6 samples.

Results

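The cytosolic ribosomal proteins, named Rps in the small subunit and Rpl in the large subunit, were followed as messenger RNAs in 6 replicate cultures of mouse dorsal root ganglia (DRG). The members were the rows of the deposited count table that are typed as protein-coding and whose symbols have the form of a ribosomal protein name. This gave 84 of 45703 rows, of which 31 were Rps and 53 were Rpl genes. Of these, 8 are like-named paralogues (Rpl3l, Rpl7l1, Rpl10l, Rpl22l1, Rpl32l, Rpl36al, Rpl39l and Rps27l), which left 30 core genes of the small subunit and 46 of the large. The form of name does not catch some genes, among them Rps3a1, Fau and Rack1, which also encode proteins of the ribosome. Rps4l, listed as a paralogue, is typed as a transcribed pseudogene and was no member.

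All cultures were prepared from C57BL/6 wild-type animals, 4 to 6 weeks of age, and formed a single group, so there was no comparison of conditions. Ganglia were digested with Liberase TH and TM at 0.6 U/ml each, and dishes coated with poly-L-lysine received the cells. They grew for 7 days in DMEM/F12 with GlutaMAX, 10% FCS, antibiotics, and EGF and FGF at 10 ng/ml each. RNA of 2 dishes went into each sample, and 500 ng of it into a stranded library selected on oligo-dT beads. The labels call the 6 cultures biological replicates without saying which animals each came from, so the spread between them may be technical in part.

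A ribosome holds a single copy of most of these proteins, and each is made from its own gene. Their messenger RNAs typically begin with a run of pyrimidines, through which the growth regulator mTOR controls their translation. Mammalian genomes also carry many processed pseudogenes of these genes, intron-less copies of the messenger RNA inserted elsewhere, and reads from short, abundant messages can match a gene and its copies equally well. Oligo-dT selection and sequencing measure the amount of messenger RNA, not of protein or of assembled ribosomes.

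The 6 libraries held between 20070639 and 22968642 counts. Neuron markers summed to between 973 and 2111 CPM (the count of a gene over the library total, in the usual scaling), with 8 of 8 at a mean of at least 1 CPM. Glial markers summed to between 3297 and 4573 CPM, with 5 of 5 at that level, and fibroblast markers to between 3338 and 13967 CPM, with 6 of 6. Macrophage markers summed to between 11.1 and 114 CPM (5 of 6 genes) and endothelial markers to between 6.31 and 100.2 CPM (3 of 4 genes), and no marker of these lists was at 0 in any library. The cultures were therefore mixtures, and in such bulk RNA a change in the mix of cells cannot be told apart from a change of RNA per cell.

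The near-identity of some genes and their pseudogene copies is shown first because shared sequence bears on most of the levels given afterwards. Of the first 60 coding bases, 4 genes and the copy with the most counts of each are printed with the bases at which they differ in capitals. Rps6 encodes the small-subunit protein that S6 kinase phosphorylates, Rpl3 and Rpl10a are proteins of the large subunit, and Rpsa is the protein also known as the laminin receptor. The gene sequences are those of the GENCODE M21 coding sequence, 5′ to 3′, joined over exons. Their genes lie at chr4:86854099-86857367 (Rps6, minus strand), chr15:80077781-80083406 (Rpl3, minus), chr9:120127766-120132369 (Rpsa, plus) and chr17:28328471-28331033 (Rpl10a, plus) of GRCm38. The copies lie at chr2:75190995-75191854 (Rps6-ps4, minus), chrX:13202518-13203837 (Rpl3-ps1, plus), chr3:150072590-150073617 (Rpsa-ps10, minus) and chr1:64993919-64994631 (Rpl10a-ps1, minus).
Rps6: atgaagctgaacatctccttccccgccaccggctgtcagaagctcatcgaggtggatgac
Rps6-ps4: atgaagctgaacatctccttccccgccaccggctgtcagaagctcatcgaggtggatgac
Rpl3: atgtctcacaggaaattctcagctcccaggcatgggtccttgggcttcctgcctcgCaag
Rpl3-ps1: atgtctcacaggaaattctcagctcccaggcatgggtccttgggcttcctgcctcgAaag
Rpsa: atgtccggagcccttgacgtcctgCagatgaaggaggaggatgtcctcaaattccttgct
Rpsa-ps10: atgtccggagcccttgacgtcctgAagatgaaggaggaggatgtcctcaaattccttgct
Rpl10a: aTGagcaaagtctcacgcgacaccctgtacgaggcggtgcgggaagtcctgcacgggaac
Rpl10a-ps1: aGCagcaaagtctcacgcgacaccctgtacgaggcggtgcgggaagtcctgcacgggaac
Over these 60 bases the pairs differed at 0, 1, 1 and 2 positions, in the order printed. Over the whole coding sequence, 100% of the 31-base words of Rps6 also occurred in Rps6-ps4, 94.7% of those of Rpl3 in Rpl3-ps1, 81.9% of those of Rpsa in Rpsa-ps10 and 99.5% of those of Rpl10a in Rpl10a-ps1.

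The starts of 6 genes are shown because the data describe how their messages vary together. Each window holds the 15 bases before the annotated start and the first 15 bases of the gene, on the strand of the gene, from the RefSeq promoters of GRCm38.p6, and capitals mark the longest run of pyrimidines (C or T) of at least 5, or the first of them where 2 are equally long, as in Rpl22. Rpl12 and Rpl36a were among the genes with the largest spread between cultures, Rpl22 and Rpl41 among those with the smallest, Rpl22l1 is a paralogue of Rpl22, and Rps6 is the phosphorylated protein named above. The windows lie at chr2:32961697-32961726 (Rpl12, plus), chrX:134585639-134585668 (Rpl36a, plus), chr4:86857353-86857382 (Rps6, minus), chr3:28805493-28805522 (Rpl22l1, plus), chr4:152324421-152324450 (Rpl22, plus) and chr10:128549154-128549183 (Rpl41, minus).
Rpl12: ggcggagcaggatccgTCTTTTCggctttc
Rpl36a: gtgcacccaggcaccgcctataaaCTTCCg
Rps6: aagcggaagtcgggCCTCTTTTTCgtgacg
Rpl22l1: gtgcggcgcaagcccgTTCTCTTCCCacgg
Rpl22: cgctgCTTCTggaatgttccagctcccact
Rpl41: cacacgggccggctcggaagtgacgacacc
A promoter was found in the RefSeq table for 64 of the 84 members. In some of them its start lay apart from the start of the gene in the count table, by up to 4707 bases (Rpl19). A pyrimidine run of at least 8 bases lay in this window in 26 of the 64 (40.6%), against 11.9% of all 27025 promoters. The letters CTTTC, searched on the gene's strand from 20 bases before to 30 after the start, were found in 20 members (31.2%) and in 6.46% of all promoters. CCGGAAG, searched on both strands of the whole 300-base promoter, was found in 24 members (37.5%), in 9.12% of all promoters and in 17.7% of those of genes with a mean of at least 1 CPM. TATAAA, searched on the gene's strand in the 50 bases before the start, was found in 1 member, Rpl22l1 (1.56% of the 64). It was found in 2.88% of all promoters and in 1.37% of those of genes with a mean of at least 1 CPM. The same letters in the printed Rpl36a window lie after the start and were not counted. CTTTC can lie inside a pyrimidine run, so those counts overlap. These matches describe letters and not binding.

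The ribosomal protein genes took 1.33%, 1.39%, 1.30%, 1.50%, 1.70% and 1.28% of the counts of replicates 1 to 6. The mean was 1.42% ± 0.161 (SD, n = 6), and the highest library was 1.33-fold above the lowest. Replicate 5 was the high library, replicate 4 came next, and replicates 1, 2, 3 and 6 lay together below them. Core genes of the small subunit took 0.524% ± 0.0690 and those of the large subunit 0.871% ± 0.0901 of the counts (SD, n = 6).

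Of the 84 members, 81 reached a mean of at least 1 CPM and 3 did not. To compare genes, CPM was divided by the combined exon length in kilobases (kb) that the table gives for each gene. On that scale the median of the 81 genes was 173 CPM per kb, with quartiles of 114 and 268, against a median of 7.22 over the 14953 genes of all kinds at a mean of at least 1 CPM. The highest gene lay 40.2-fold above the lowest, and 22.4-fold within the 76 core genes. Of the core genes, 60 lay within 2-fold of the core median of 183 CPM per kb. In the order of mean levels, 2 of the 80 pairs of neighbouring genes had ranges over the 6 libraries that did not overlap. These were Rplp0 above Rpl7 and Rpl7l1 above Rps27l. Both genes of a pair come from the same libraries, so overlapping ranges do not show that their order changed within a library. The order within each library was not counted.

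**Figure D1:**
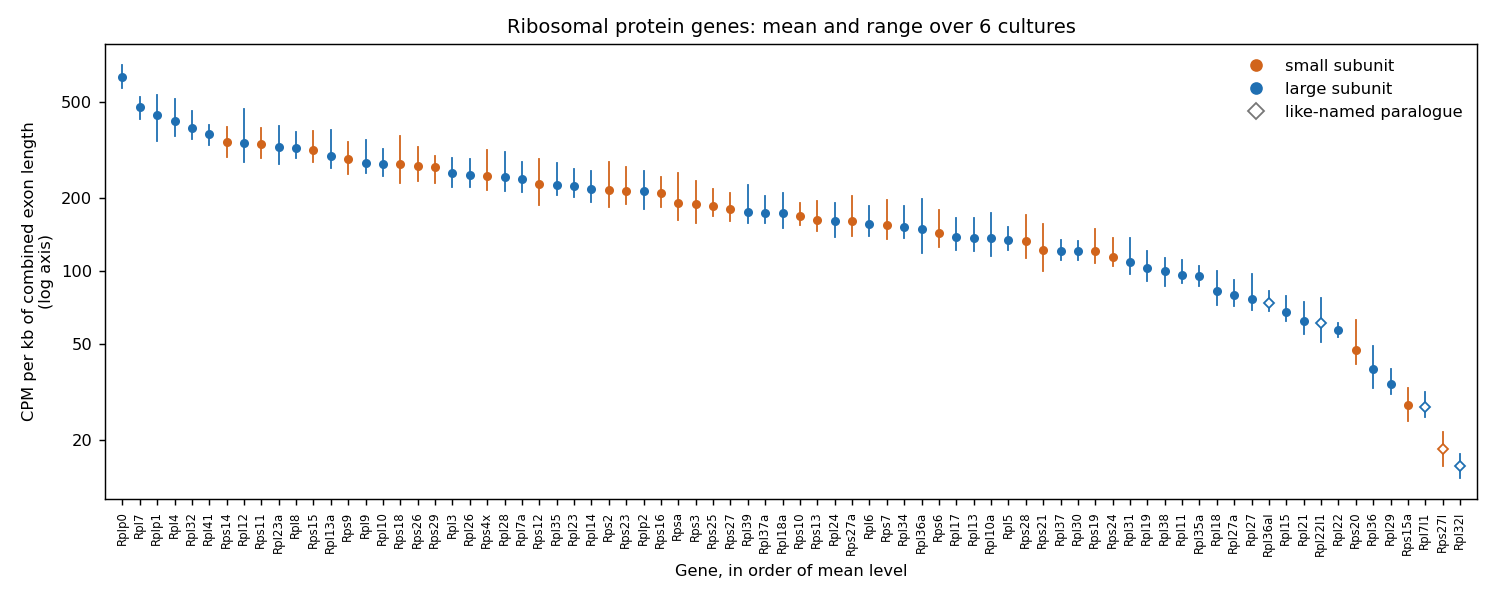
Mean level (points) and range over the 6 cultures (bars) of 78 ribosomal protein genes with a mean of at least 1 CPM, in CPM per kb of combined exon length on a log axis, ordered by mean. Orange marks small-subunit and blue large-subunit genes, and open diamonds are paralogues; the levels fall from 629 for Rplp0 to 15.6 for Rpl32l, with the paralogues near the low end.

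Rplp0 stood highest per kb at 629 ± 52.8 CPM per kb (SD, n = 6). It is the base of the stalk of the large subunit, to which Rplp1 and Rplp2 attach and which recruits the elongation factors. In replicates 1 to 6 Rplp0 was at 826, 869, 776, 905, 965 and 793 CPM, high in replicates 4 and 5 and low in replicates 3 and 6. Rplp1 was at 161, 228, 174, 214, 249 and 207 CPM, with replicates 1 and 3 well below the others. Rplp2 was at 82.5, 102, 83.7, 101, 118 and 97.6 CPM, so both small stalk proteins were lowest in replicates 1 and 3 and highest in replicate 5. Per kb Rplp1 reached 439 ± 70.0 and Rplp2 213 ± 28.6 CPM per kb (SD, n = 6).

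Next to Rplp0 and Rplp1, the 6 highest genes per kb were Rpl7 at 476 ± 38.9, Rpl4 at 417 ± 55.1, Rpl32 at 387 ± 39.7 and Rpl41 at 367 ± 22.3 CPM per kb (SD, n = 6), all of the large subunit. Rpl41, whose coding sequence of 75 bases was the shortest of the members, was at 179, 166, 149, 166, 169 and 160.1 CPM in replicates 1 to 6. Its highest library was replicate 1, and replicate 5 lay inside the range of the others. At the low end, Rps15a was at 28.1 ± 2.89, Rpl29 at 34.0 ± 3.13 and Rpl36 at 39.2 ± 5.99 CPM per kb (SD, n = 6), besides the paralogues. Rps15a has the longest combined exon length of the members, 5136 bases, and Rps20 (3446), Rpl21 (2907), Rpl3l (2905), Rps27l (2748) and Rpl7l1 (2606) followed, so their levels per kb depend on how much of that annotated length the cultures transcribed, which was not tested.

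The small-subunit core genes had a higher median per kb than the large-subunit ones in each library. The log2 ratio of the medians was 0.22, 0.32, 0.24, 0.33, 0.31 and 0.32 in replicates 1 to 6, with a mean of 0.29 ± 0.05 (SD, n = 6). The sign rested on the division by length and the size on the use of medians. Without the division the mean was -0.0086 ± 0.092, above 0 in 2 of 6 libraries, and with means over genes in place of medians it was 0.016 ± 0.033, above 0 in 4 of 6. With the length of a single principal transcript per gene it was 0.16 ± 0.03 and above 0 in all 6.

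Rpl5 and Rpl11 enter the large subunit together with the 5S RNA, and when free they bind Mdm2, the ligase that marks p53 for degradation. Rpl5 was at 269, 256, 255, 295, 311 and 249 CPM, and Rpl11 at 142, 148, 146, 159, 176 and 144 CPM in replicates 1 to 6. Both were high in replicates 4 and 5. Their spread was small, with coefficients of variation (CV, the SD as a percentage of the mean, after TMM scaling, the trimmed mean method of edgeR that corrects library sizes for composition) of 8.61% and 8.01%.

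Proteins that line or ring the exit tunnel, from which the new chain leaves, were represented by 7 genes. Of these, 7 of 7 were highest in replicate 5, as were 97.5% of the 81 members at a mean of at least 1 CPM. Replicate 5 was the highest library for 30.2% of all genes at that level. Rpl4, which reaches into the tunnel, ranged from 511 to 727 CPM with a median of 567. Rpl39, the small protein at the tunnel wall, ranged from 68.1 to 97.8 CPM with a median of 71.4, and replicate 5 stood alone above a narrow band of 5 libraries. Rpl17 (162 to 218 CPM, median 173), Rpl19 (196 to 262, median 218), Rpl23a (155 to 222, median 177), Rpl31 (121 to 172, median 129) and Rpl35 (92.8 to 126, median 96.4) had the same high library.

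On the small subunit, 6 genes of the path of the messenger RNA were likewise highest in replicate 5 in 6 of 6 cases. The same held for 97.5% of the 81 members and 30.2% of all genes at a mean of at least 1 CPM. Rps2, Rps3 and Rps23, which lie at the entry of the message or near the decoding centre, ranged from 211 to 324, from 297 to 440.2 and from 105 to 149 CPM, with medians of 234, 339 and 111. Rps15 ranged from 178 to 239 CPM (median 190.1), and Rps26, at the exit of the message, from 105 to 145 CPM (median 119). Rpsa was at 306, 346, 303, 385, 469.8 and 321 CPM in replicates 1 to 6, and its highest library did not touch the others. Rps6 ranged from 175 to 249 CPM (median 189). Rps27a, made as a fusion with ubiquitin, ranged from 114 to 168 CPM (median 124).

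Of 9 members in which mutations are known to cause Diamond-Blackfan anaemia, 9 were highest in replicate 5. The same held for 97.5% of the 81 members and 30.2% of all genes at a mean of at least 1 CPM. The median CV of the 9 was 10.6%, with Rpl35a lowest at 6.52% and Rps7 highest at 13.9%. The median over the 81 members was 10.8%.

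Per kb the paralogues were low next to the genes they resemble, with 1 exception, Rpl22l1. Rpl10l, a retrocopy known from testis, had 0 counts in all 6 libraries, which allows a level of up to 0.149 CPM in the smallest library at 3 counts. Rpl39l, also known from testis, had 2 counts, all in replicate 5, and Rpl3l, known from heart and skeletal muscle, had 4, all in replicate 4. Rpl32l was at 8.26 to 10.4 CPM (median 9.28), and its log2 difference from Rpl32 per kb was -4.63 ± 0.04 (SD, n = 6). Rpl7l1 differed from Rpl7 by -4.12 ± 0.09 and Rps27l, a gene known to respond to p53, from Rps27 by -3.29 ± 0.10 on that scale, each lower in 6 of 6 libraries. Rpl36al, at 50.4% of the level of Rpl36a per kb, differed by -0.998 ± 0.184 (log2, SD, n = 6). Before division by length these differences were -4.39 for Rpl32l, -2.64 for Rpl7l1, -1.03 for Rps27l and -0.918 for Rpl36al, so those of Rpl7l1 and Rps27l owed much of their size to the combined exon lengths.

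Rpl22 encodes an RNA-binding protein of the large subunit that is known to repress its paralogue Rpl22l1. Rpl22l1 was at 28.2, 32.1, 31.4, 36.5, 42.9 and 31.9 CPM and Rpl22 at 144, 142, 133, 149, 152 and 136 CPM in replicates 1 to 6. Rpl22l1 thus ranged widely, from a low replicate 1 to a high replicate 5, while Rpl22 stayed in a narrow band. Per kb the log2 difference of Rpl22l1 from Rpl22 was 0.08 ± 0.17 (SD, n = 6), from -0.19 in replicate 1 to 0.34 in replicate 5, so the mean difference was smaller than the spread between libraries. The combined exon length of Rpl22 is 2497 bases and that of Rpl22l1 556, and before division by length the difference was -2.09, larger in size than those of Rps27l and Rpl36al, so Rpl22l1 was an exception only per kb.

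Replicate 5 was the highest library for nearly every member. It was highest for 80 of the 84 members, and for 79 of the 81 at a mean of at least 1 CPM (97.5%). The 30.2% of all genes refers to 4519 of 14953. The exceptions were Rpl7 and Rpl41, highest in replicate 1, Rpl3l, with its 4 counts in replicate 4, and Rpl10l, at 0 throughout. Rpl7 was at 487, 449, 414, 443, 479.6 and 394 CPM in replicates 1 to 6, so replicate 5 came next to replicate 1. The lowest library was replicate 6 for 41 of the 81 genes, against 15.6% of all genes. It was replicate 3 for 17 of the 81, against 1144 of the 14953. Replicate 1 was lowest for 20 of the 81, close to the share over all genes, 3727 of the 14953.

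The size of the step differed between members. The ratio of replicate 5 to the median of the other libraries ran from 1.02 for Rpl41 to 1.53 for Rpl12. Rpl12, a protein at the foot of the stalk, was at 179, 204, 195, 226, 298 and 183 CPM in replicates 1 to 6, and its value in replicate 5 lay far above the rest. Rpl36a, the X-linked gene that Rpl36al resembles, was at 67.4, 70.2, 63.7, 81.1, 96.8 and 58.0 CPM, with replicates 5 and 4 again at the top. As a median over the 81 genes, the log2 difference from each gene's own mean was -0.09, -0.03, -0.11, 0.09, 0.26 and -0.13 in replicates 1 to 6. For all genes the same median lay between -0.03 and 0.03 in the 6 libraries.

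**Figure D2:**
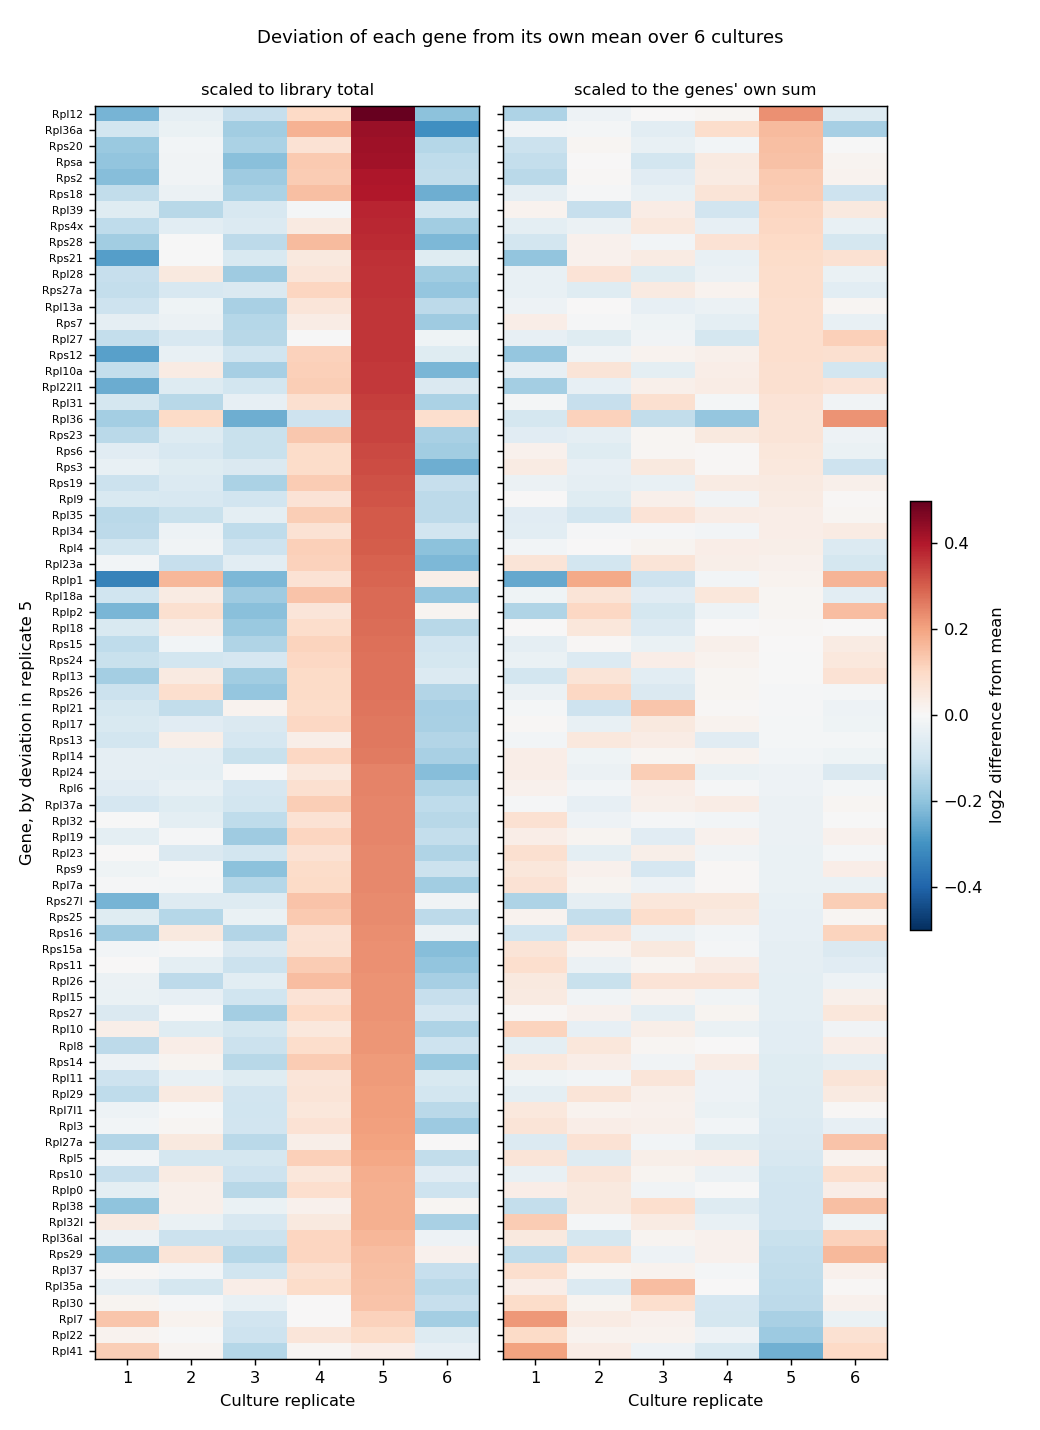
Log2 difference of each of 78 genes from its own mean over the 6 cultures, with counts scaled to the library total (left) or to the sum of all ribosomal protein genes (right), in order of the value in replicate 5. On the left the column of replicate 5 is red for the whole list, and on the right most of that column fades, leaving Rpl12 at the top and Rpl41 at the bottom.

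Other genes also set replicate 5 apart. Fibroblast markers summed to 3338, 6062, 4429, 7446, 13967 and 4799 CPM in replicates 1 to 6, and 5 of these 6 genes were highest in replicate 5. Macrophage markers summed to 11.1, 21.7, 81.6, 85.7, 114 and 26.3 CPM and endothelial markers to 6.31, 16.9, 15.8, 30.2, 100.2 and 18.6 CPM. The sum of the neuron markers was lowest in replicate 5, at 1732, 1169, 2111, 1457, 973 and 1600 CPM. So was that of the glial markers, at 4573, 4392, 3741, 3332, 3297 and 3548 CPM, with replicate 4 close to it. By gene, 6 of 8 neuron and 4 of 5 glial markers were lowest in replicate 5, against 3885 of all 14953 genes. Prph and Isl1 were lowest in replicate 2, and Ngfr in replicate 6. Cell cycle markers summed to 259, 384, 375, 374, 408 and 472 CPM, highest in replicate 6. The part of the mix of cells in the level of the ribosomal protein genes was not tested.

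Most of the spread was common to the members. When each gene was expressed as a share of the members' summed counts in place of the library total, the median SD of its log2 value fell from 0.157 to 0.0621, or to 39.5% of its size. The SD was smaller in 77 of the 81 genes. It was larger for Rpl41, Rpl7, Rpl22 and Rpl30, the genes with the smallest log2 differences from their own mean in replicate 5. Without replicate 5 the remaining spread was 51.4% of its size. The largest remaining SDs were those of Rplp1 (0.167), Rpl36 (0.160), Rpl41 (0.152) and Rpl7 (0.129). Genes of the same libraries share depth and composition, so this is a description of the 6 libraries.

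The median CV of the members was 10.8%, against 12.1% over all genes at a mean of at least 1 CPM, and the small-subunit members (13.1%) had a higher median than the large-subunit ones (10.5%). Of the 81 genes, 46 lay under the median of all genes. The largest CV was that of Rpl12 (20.1%), and others among the largest were those of Rpl36a (18.7%), Rpsa (17.6%), Rps18 (17.0%) and Rps20 (16.8%). The 3 smallest were those of Rpl22 (5.37%), Rpl30 (5.79%) and Rpl35a (6.52%). Counting error alone would give a median CV of 1.80%, and for Rpl32l it would give 7.10% against an observed 7.98%. The order of the members and all genes depended on the libraries used. Without replicate 5 the median was 7.37% for the members and 10.2% for all genes, without replicate 2 the values were 12.04% and 12.1%, and without replicate 1 the members were the higher, at 11.86% against 11.496%.

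A chi-square test of the 6 counts of a gene against the scaled library sizes, with Benjamini-Hochberg adjustment over 14998 genes and a threshold of 0.05, found variation beyond counting noise in 80 of 81 members, all but Rpl32l, and in 76.3% of all genes tested. The test says that replicate cultures differed by more than sampling, which held for most genes of this depth. A second test asked whether a gene varied more than genes of similar abundance, by the quasi-dispersion of edgeR. It called 0 members and 0% of all genes at an adjusted p under 0.05, and at an unadjusted p under 0.05 it marked 0 members and 5.39% of all genes. With DESeq2 size factors in that test the count of members was 0 as well. The test did not call Pdgfra either, a fibroblast marker with a CV of 118%. As it called no gene at all, its result does not show that the members varied little. The biological CV that edgeR estimated per gene lay below the trend at that abundance for 74 of the 81 members and for 79.6% of all genes.

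Other genes of translation were read from lists by function, with the same scaling. Fau, made as a fusion with a ubiquitin-like protein, was at 96.5 ± 10.6 CPM and Rack1, a scaffold on the small subunit, at 443 ± 74.0 CPM (SD, n = 6), and both were highest in replicate 5. Rps3a1, in none of the lists, was at 231, 228, 217, 253, 303 and 219 CPM, again highest there. Elongation factors were highest in replicate 5 for 5 of 8 genes, against 30.2% of all genes at a mean of at least 1 CPM. Their median log2 difference from their means in that library was 0.22. Eef1a1, which brings transfer RNA to the ribosome, was at 3683 ± 402 CPM and Eef2, which moves the ribosome along, at 1842 ± 168 CPM (SD, n = 6). Eef1a2, the form of neurons and muscle, and Eef2k, the kinase of Eef2, had the largest CVs of that list, 27.9% and 25.1%. Both went the other way and were lowest in replicate 5, at 51.9 and 46.8 CPM. The fewest counts were those of Eef2k at 69.9 ± 16.7 and Eef1d at 73.2 ± 9.68 CPM (SD, n = 6). Variation beyond counting noise was found in 8 of the 8, against 76.3% of all genes tested.

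Initiation factors were highest in replicate 5 for 18 of 27 genes, against 30.2% of all genes, with a smaller median difference of 0.12. Of the 27, 26 varied beyond counting noise, against 76.3% of all genes tested. Eif4g1 was at 499 ± 27.2 and Eif4a1 at 473 ± 36.6 CPM, and Eif3j1 at 50.7 ± 4.30 and Eif3g at 52.8 ± 1.10 CPM (SD, n = 6). The largest CV of the list was that of Pabpc1, the poly(A)-binding protein, at 12.9%, followed by Eif2s2 at 11.7%. Genes of ribosome assembly and ribosomal RNA synthesis were highest in replicate 5 for 20 of 29, against 30.2% of all genes. Their median difference was 0.21, and 27 of the 29 varied beyond counting noise, against 76.3% of all genes tested. Ncl was at 357 ± 37.6 and Npm1 at 185 ± 40.2 CPM, both nucleolar, and Gar1 at 9.75 ± 0.645 and Rrp9 at 11.7 ± 1.64 CPM (SD, n = 6). Npm1 (21.1%) and Bop1 (19.2%) had the largest CVs.

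Regulators of growth that act on translation or on p53 made up a further list. Of 10 such genes, 3 were highest in replicate 5, close to the share over all genes, with a median difference of 0.03. Larp1, which binds messages that begin with pyrimidine runs, was at 170 ± 11.4 and Eif4ebp2 at 108 ± 5.86 CPM (SD, n = 6). The lowest were Rps6kb2 at 29.4 ± 2.42 and Eif4ebp1 at 52.3 ± 7.22 CPM, and Maf1 was at 57.3 ± 6.32 CPM (SD, n = 6). Eif4ebp1 (14.6%) and Maf1 (11.6%) had the largest CVs, and 7 of the 10 varied beyond counting noise, near the 76.3% of all genes tested. Proteins of the mitochondrial ribosome, made from separate nuclear genes, were highest in replicate 5 for 26 of 78, near the 30.2% of all genes. Their median difference was 0.05. Their median CV was 7.68%. Of the 78, 38 varied beyond counting noise, against 76.3% of all genes tested. The median level of this list was 18.7 CPM, against 144 CPM for the members, and fewer counts make such variation harder to call. No test was made of the difference between lists.

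**Figure D3:**
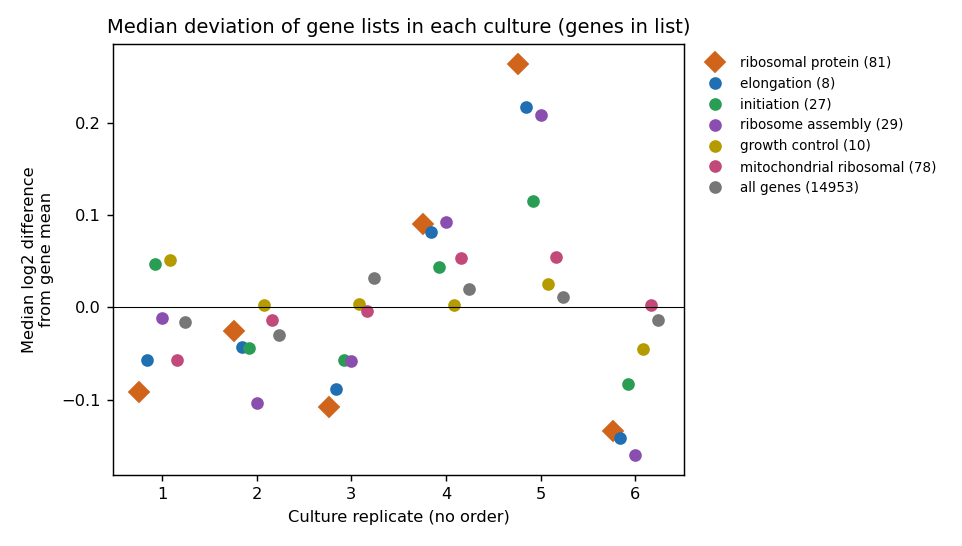
Median over the genes of each list of the log2 difference from the gene's own mean, in each of the 6 cultures, which have no order. In replicate 5 the ribosomal protein genes lie at 0.26, elongation factors at 0.22 and ribosome assembly genes at 0.21, while all genes lie at 0.01.

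The deposited counts of these genes were seldom whole numbers. A count is called fractional where it was more than 0.001 from a whole number. In all 6 libraries at once, 62 of the 84 members were fractional (73.8%; 76.5% of the 81 at a mean of at least 1 CPM), against 11.3% of all genes at that level. In at least 1 library, 81 members were fractional, against 51.2% of all genes. These comparisons were not matched on level, and the median was 144 CPM for the members against 23.6 CPM for all genes. The 3 members never fractional were Rpl10l, Rpl39l and Rpl3l, which had 4 counts or fewer. In replicates 1 to 6, 73, 76, 79, 74, 76 and 73 members were fractional, so the libraries did not stand apart in this. Rows with a fractional count held 92.4% ± 3.55 of the members' counts and 37.2% ± 2.00 of the counts of all genes (SD, n = 6).

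The remainders were spread over many values. Of the 504 values of the members, 451 were fractional. A remainder of 0.5 made up 8.65% of these, against 39.5% of the fractional values of all genes. Remainders of 0.25, 0.33, 0.5, 0.67 and 0.75 together made up 17.96% for the members and 55.9% for all genes. The members had 95 of the 99 possible remainders of 2 decimals.

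The rows named as pseudogenes of a member numbered 232 without those typed as protein-coding, and they belonged to 57 of the 84 members. In all, 28 of these rows were at 0 in all libraries and 124 reached a mean of at least 1 CPM. Of the 124, 111 were fractional in all 6 libraries, against 11.3% of all genes at that level. For 118 of the 124 replicate 5 was the highest library, against 30.2% of all genes. The 232 rows held 0.179%, 0.187%, 0.173%, 0.203%, 0.230% and 0.172% of the counts of replicates 1 to 6. Set against the members' own counts this was nearly constant, at 13.4, 13.5, 13.4, 13.6, 13.5 and 13.4 counts per 100 member counts, or 13.5 ± 0.0687 (SD, n = 6). The counts in the rows of the copies and of the genes thus moved together, with replicate 5 high in both. If reads matching a gene and its copies were divided between their rows, such a steady ratio could follow from that division alone. The ratio therefore does not show that the copies varied with their genes. Whether the copies were transcribed was not tested.

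**Figure D4:**
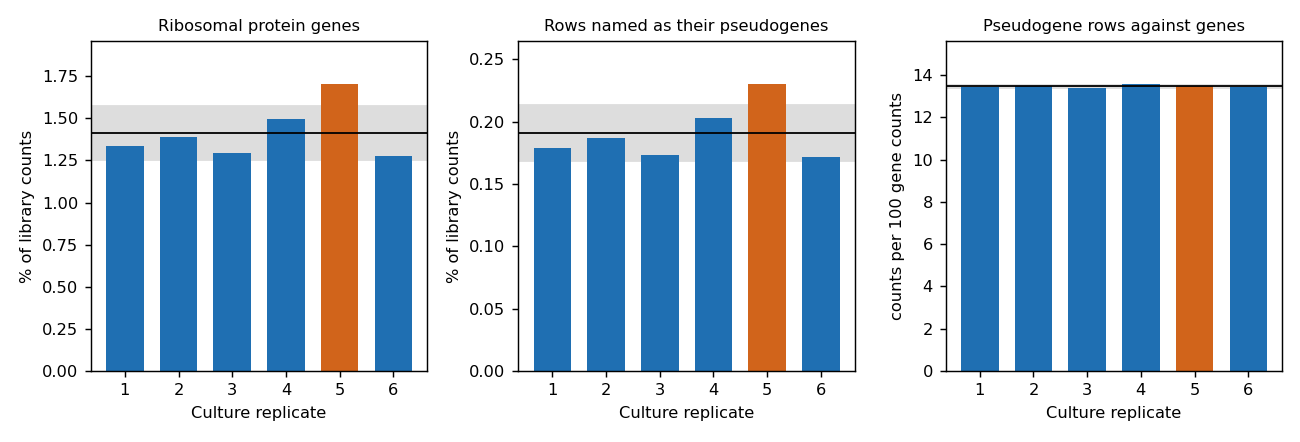
Share of library counts in the ribosomal protein genes (left) and in rows named as their pseudogenes (middle), and the counts of the latter per 100 of the former (right), in each of the 6 cultures; lines and grey bands are the mean and SD. Replicate 5, in orange, is high in the first panels at 1.70% and 0.230%, and the ratio stays between 13.4 and 13.6 in all cultures.

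The copies differed by gene. The rows named as pseudogenes of Rpl10 summed to 86.9 counts per 100 counts of Rpl10, those of Rpl35a to 74.2, of Rpl10a to 67.8, of Rps23 to 57.6, of Rpl30 to 56.0 and of Rps16 to 55.7. Rpl10a-ps1, printed above with its gene, carried the highest count of the named copies at 87.5 ± 13.9 CPM (SD, n = 6). Next came Rpl3-ps1 at 76.1 ± 6.64, Rps6-ps4 at 76.0 ± 11.1, Rps16-ps2 at 71.6 ± 8.27, Rpsa-ps10 at 69.1 ± 12.5 and Rpl10-ps3 at 57.4 ± 5.56 CPM (SD, n = 6). How the counting treated reads that match several places is not given in the sources used here, so the division of reads between each gene and its copies is uncertain in both rows. Adding the copies to their genes left the median CV of the members at 10.9%.

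Sequence shared with other genes went with fractional counts. For the 83 members with a coding transcript in GENCODE M21, the median share of 31-base coding words that also occur in a transcript of another gene was 96.4%, against 0% over 12666 protein-coding genes at a mean of at least 1 CPM. More than 50% of the words were shared in 76 members, and in 7.90% of those genes. A member shared words with a median of 15 other genes, and Rpl7a with 162. Members fractional in all 6 libraries shared a median of 99.6% of their words (62 genes), and the 18 fractional in 1 to 5 libraries for which a transcript was found shared 76.1%. Over all genes the medians were 51.6% for the 781 fractional in all 6 libraries and 0% for the 6870 fractional in none.

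Single members show the range. Rpl8 shared 11.1% of its words and was fractional in 3 libraries, and Rps3 (19.0%) and Rpl4 (39.0%) were fractional in 4. Rpl31, Rps27, Rpl12, Rpl9 and Rps6 shared 100% and were fractional in all 6. Rpl36al was an exception, with 100% of its words shared, among others with Rpl36a, and a fractional count in 1 library. Of the 57 members with a row named as a pseudogene, 49 were fractional in all 6 libraries, and of the 27 without one, 13 were. Copies that are not in this set of transcripts were not counted.

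**Figure D5:**
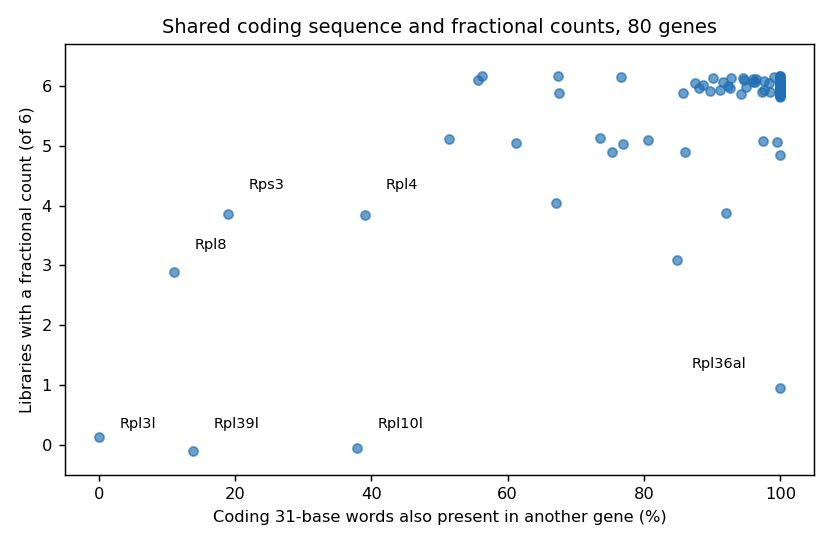
Share of the coding 31-base words of each of 80 ribosomal protein genes that also occur in another gene (horizontal, %) against the number of libraries of 6 in which its count was fractional (vertical, points spread slightly around whole numbers). Most genes sit at the upper right; Rpl8, Rps3 and Rpl4 share little and were fractional in 3 or 4 libraries, and Rpl36al shares 100% but was fractional in 1.

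Introns of these genes also hold small nucleolar RNA genes, which guide the modification of ribosomal RNA. The table had 57 such rows inside 29 members. They summed to between 314 and 498 counts per library, or 0.117% to 0.156% of the members' counts, and 8 of the 57 had at most 3 counts in any library. Small nucleolar RNAs mostly lack poly(A) tails and the libraries were selected on oligo-dT, so these are no measure of their amounts.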

How the data were processed

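RNA was sequenced from 6 cultures of 1 group. The deposited table of the whole series holds estimated counts per gene, which the authors call raw and did not scale; many values are not whole. The submitters' processing notes name bcl2fastq 2.20.0.422, cutadapt 2.5, STAR 2.7.2b, featureCounts 1.6.4 (Subread) and the build GRCm38.p6, without their settings. The strand setting and the treatment of reads with several matches are not given in the sources used here. Dividing such reads would yield fractions and would lower the count of a gene in favour of its copies.

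Levels kept the fractions: CPM is the count over the library total, and levels between genes were divided by the deposited combined exon length. Library totals ran from 20070639 to 22968642, with TMM factors between 0.977 and 1.02, and precision is limited by counting error only for the rarest members. CVs used TMM scaling. For tests, estimated counts were rounded to whole numbers, filtered with filterByExpr (14998 genes) and tested with a chi-square test and with the quasi-dispersion of an intercept-only edgeR 4.0.16 fit (DESeq2 1.42.0 size factors as an alternative; R 4.3.3, Python 3.11.15), both with Benjamini-Hochberg adjustment at 0.05 and tested on simulated data. Every p-value measures only the spread between these samples. Coding transcripts were those of GENCODE M21 and promoters those of RefSeq (GRCm38.p6). All 84 GeneIDs and gene start positions matched RefSeq, while some promoter starts lay apart from them.

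Members and lists were chosen with earlier results of these data known. Any member could be named. Full values were given for the 6 highest and 6 lowest per kb, the 6 largest and 3 smallest CVs, the structural lists and paralogues, the pseudogene rows with the highest counts, and, of each other list, the 2 highest, 2 lowest and 2 most variable genes. Rpl32l was added to the paralogues, and Rps3a1 named, after their values were seen. Alternatives were other scalings, filters, lengths and tolerances, and leaving out each replicate. Some genes that the rule names are not reported here, nor drawn in the figures, although they count in the totals. 0 columns of other samples were present.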

Additional observations from a re-analysis of the deposited data

Results flagged for a closer look

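In 4 members a single library stood apart from the other 5, by a gap over the whole range that exceeded Dixon's 95% critical value for 6 samples. In each case it was replicate 5. Rpl39, a protein of the exit tunnel, had a ratio of 0.784, with 97.8 CPM in replicate 5 and 74.6 CPM in the next library. Rpl27, a protein of the large subunit, had a ratio of 0.757, with 71.5 against 55.7 CPM. Rps4x, the X-linked small-subunit protein, had a ratio of 0.646, with 433 against 344 CPM. Rps7, one of the Diamond-Blackfan genes, had a ratio of 0.645, with 189 against 151 CPM. The rule was applied to 88 measures, of which chance alone would mark about 4.4, so the number of marked genes is near what chance gives. They are not independent, since the members moved together. The summed markers of fibroblasts, macrophages and endothelial cells given above were also highest in replicate 5. Of the single markers, Lum was highest in replicate 4, and Cx3cr1 and Aif1 in replicate 3. The part of those cells in these values was not tested.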

How the results depend on the processing

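The level of small- against large-subunit genes depended on the processing: the log2 ratio of 0.29 became -0.0086 without division by length, which turns its direction, 0.016 with means in place of medians, 0.41 with paralogues kept and 0.16 with principal transcript length, an alternative chosen after seeing the data. The cause was not tested beyond the change of length itself. Pseudogene counts per 100 member counts were 12.4 with only rows typed as pseudogene. The other 20 alternatives to the main results kept their value within replicate spread or within 1.5 times the main count, as did TMM scaling for each of the 81 single genes. Some of these could hardly have differed. The fractional count used no filter on low values, so leaving the filter out repeated the main value. The counts beyond the abundance trend were 0 in every setting. TMM factors lay between 0.977 and 1.02, so the mean CPM of a gene could move little. Leaving out each replicate in turn gave a share of counts of 1.36% to 1.44%, 78 to 80 members beyond counting noise, 0 in each case beyond the abundance trend, a median CV of 7.37% to 12.04%, 62 to 65 members fractional in all libraries, a subunit ratio of 0.28 to 0.30, a remaining spread of 32.9% to 51.4%, and 13.4 to 13.5 pseudogene counts per 100. The test against the abundance trend called no gene of any kind in these settings, so its count for members is uninformative. Replicate 5 set the lowest CV. No paired analysis was possible because all samples belong to 1 group. Counting error was close to the spread of Rpl32l, and for Rpl10l, Rpl39l and Rpl3l a level below about 3 counts is not detectable.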
